A study of Mus musculus with 36 samples.

Results

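The change in gene expression from mouse embryonic stem cells (ESC) to neural precursor cells (NPC) was compared between a line in which MLL2 carries a degron (MLL2dTAG) and wild type (WT). The quantity described is an interaction, the NPC minus ESC change in MLL2dTAG minus the NPC minus ESC change in WT, on the log2 scale. It rests on 12 of the 36 samples of the series, with 3 libraries in each of the 4 groups, chosen by their labelled genotype and stage. All 4 groups derive from E14 stem cells and all were labelled as treated with dTAG-13, WT included. The groups were ESC of wild type genotype with dTAG-13, ESC of genotype MLL2 dTAG with dTAG-13, NPC of wild type genotype with dTAG-13 and RA, and NPC of genotype MLL2 dTAG with dTAG-13 and RA. In NPC the compound was present at 2 µM from day 1 of differentiation until harvest on day 4, and for how long ESC were treated is not given in the sources used here. Another 6 libraries, ESC and NPC of a line with catalytically dead MLL3 and MLL4 (genotype MLL3/4 dCD, here dCD), were read from the same count table with the same treatments and served as a second reference. The series as a whole concerns the methyltransferase function of MLL3 and MLL4 during differentiation. Since WT and MLL2dTAG are separate lines, loss of MLL2 and other differences between these lines cannot be told apart. The labels do not say whether replicates were separate cultures, so p-values measure the spread between these libraries, which may be technical.

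MLL2, encoded by Kmt2b, is a methyltransferase that places methyl groups on lysine 4 of histone H3, mainly at promoters. Its CXXC domain binds CpG dinucleotides that are not methylated, and it is known for trimethylating H3K4 at CpG-rich promoters that are also held by Polycomb repressors in stem cells. A degron is a protein tag through which a small molecule, here dTAG-13, recruits a ubiquitin ligase so that the tagged protein is broken down. Retinoic acid drives stem cells out of pluripotency and towards neural fates with hindbrain and spinal cord identity, in part by opening the Hox clusters.

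Total counts were 19.4 M to 46 M per library, 20511 genes of 51734 were tested, and each library was most similar to a library of its own group. Levels are given as CPM, counts scaled to a library total of 1000000. Kmt2b mRNA measured 198, 234 and 204 CPM in WT ESC, 206, 201 and 214 in MLL2dTAG ESC, 177, 193 and 179 in WT NPC and 203, 190.2 and 198 in MLL2dTAG NPC. The lines overlapped at both stages, the interaction was not called (0.15, SE 0.06, edgeR quasi-likelihood test, Benjamini-Hochberg adjusted p = 0.06), and since a degron acts on the protein this level does not check the labels. The labelled stages were checked with markers. The summed level of 10 stem cell markers was 4366 to 4816 CPM in WT ESC, 4917 to 5186 in MLL2dTAG ESC, 33.6 to 34.9 in WT NPC and 213 to 217 in MLL2dTAG NPC. That of 12 neural precursor markers was 125 to 139.6, 118 to 123, 254 to 274 and 298 to 307 CPM in the same order. In both lines the NPC libraries were thus far lower for the former sum and higher for the latter. Nes and Msi1 made up most of the latter in NPC, with 9571 and 10736 counts in WT and 18271 and 9117 in MLL2dTAG. The interaction of these 12 genes was called positive for 2 and negative for 3 (26.4% and 22.6% of all genes tested), with a median of -0.73. In these bulk samples, fewer cells of a type and less RNA per cell cannot be told apart.

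Both lines changed widely between the stages. In WT, 79.5% of the genes tested were called (adjusted p under 0.05), 39.1% higher and 40.4% lower in NPC, and 43.7% were called with a change of at least 2-fold, 4616 higher and 4345 lower in NPC. In MLL2dTAG 78.2% were called, 39.9% higher and 38.3% lower, and the share at 2-fold was 41.8%, 4536 higher and 4047 lower. Across the 20511 genes, which are not independent replicates, the changes of the lines had a Pearson correlation of 0.824 and a Spearman correlation of 0.808, and they share no library. The interaction was called for 10043 genes, 49.0% of those tested. Of these, 5417 (26.4% of genes tested) were positive, meaning a higher NPC to ESC ratio in MLL2dTAG, and 4626 (22.6%) were negative. Positive calls made up 53.9% of all calls, and 43.8% when genes with low counts were kept in the fit, so the balance of directions is not a result. The median interaction over all genes was 0.05, with a standard deviation of 1.33 against 2.27 for the WT change. At 2-fold or more, 3551 genes (17.3%) were called, 1712 positive (8.35%) and 1839 negative (8.97%), and 2873 of the 3551 stayed called without each of the 12 libraries in turn.

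**Figure D1:**
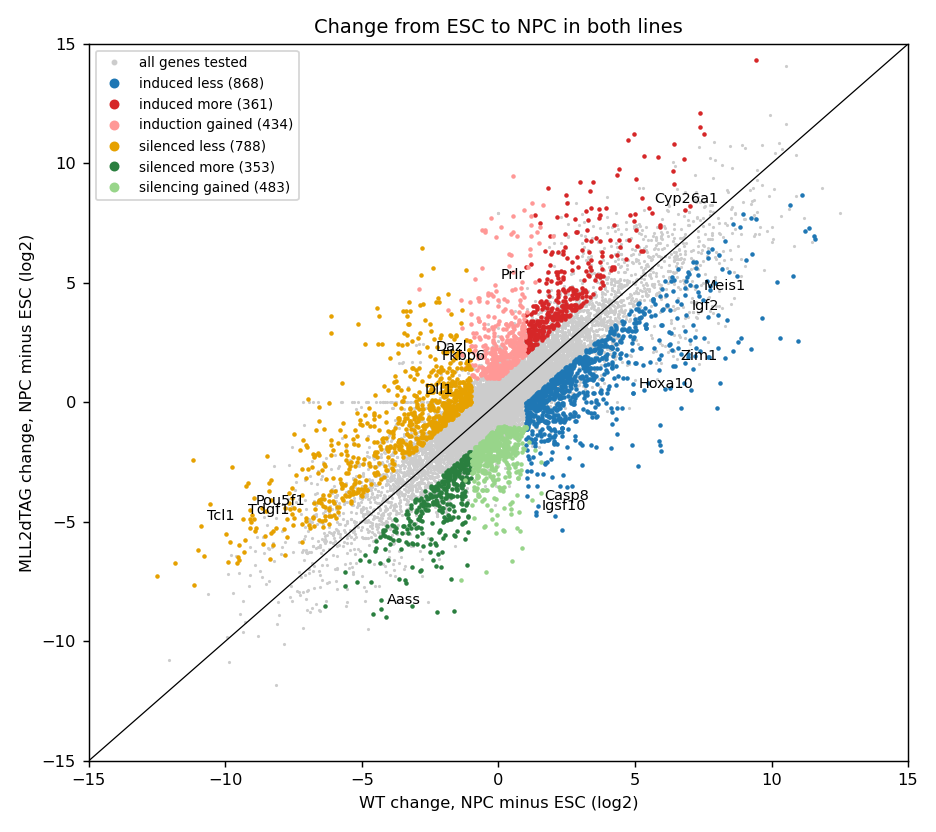
Change from ESC to NPC on the log2 scale in WT (horizontal) and MLL2dTAG (vertical) for every gene tested, each value a fit over 3 libraries a group. Coloured points are the genes with a called interaction of at least 2-fold, by class with the number of genes. The diagonal is the line of equal change, and Igsf10, Casp8 and Zim1 lie far below it while Tcl1, Pou5f1 and Prlr lie above.

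The 3551 genes were sorted by what they did in each line. The largest class held 868 genes that WT induced at least 2-fold and MLL2dTAG induced less, with a median change of 2.60 in WT and 0.67 in MLL2dTAG on the log2 scale. In 73 of them the direction turned, with a called fall of at least 2-fold in MLL2dTAG. Next were 788 genes that WT silenced and MLL2dTAG silenced less, with medians of -2.89 and -0.64, of which 82 were induced in MLL2dTAG. A further 361 genes were induced in both lines and more in MLL2dTAG (medians 2.18 and 4.04), and 353 were silenced in both and more in MLL2dTAG (-1.94 and -3.93). Changes that WT did not show at 2-fold were an induction gained by 434 genes (0.16 in WT, 2.08 in MLL2dTAG) and a silencing gained by 483 genes (-0.11 and -2.01). The remaining 264 genes met none of these definitions. Medians follow from how the classes were drawn and are given as a description.

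An interaction can arise at either stage, and the classes differed in this respect. Over all genes tested, 56.9% differed between the lines in ESC (16.8% at least 2-fold) and 61.7% in NPC (19.6% at least 2-fold). For 2050 of the 3551 genes (57.7%) the MLL2dTAG difference from WT was larger in size in NPC than in ESC. The share was 78.8% among genes silenced more, 77% for silencing gained and 62.6% for silenced less. It was 53% for induced less, 43.1% for induction gained and 32.1% for induced more. Genes induced more thus had, in the median, a lower level in MLL2dTAG ESC than in WT ESC (-1.36) beside a small difference in NPC (0.50), whereas genes of gained silencing had a median of 0.28 in ESC and -1.71 in NPC. Since the interaction is the NPC difference minus the ESC difference, these medians describe it and do not support it.

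Genes were also grouped by the dCD line, which shares no library with the interaction. In dCD 41.3% of genes tested changed at least 2-fold. Among the 4352 induced genes (21.2%), 15.1% had a called negative interaction of at least 2-fold and 12.1% a positive one, with a median of -0.09. Among the 4117 silenced genes (20.1%), 13.8% were positive and 10.6% negative, with a median of 0.17. Of the other 12042 genes, 5.12% were positive and 6.19% negative, and their median was 0.04.

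In each class, the genes described first are among the 4 with the largest interaction of those with at least 5 CPM in a group, 10 counts in every group and a call without each library in turn. Among genes induced less these included Igsf10, which encodes a secreted immunoglobulin superfamily protein, and Casp8, the initiator caspase of death receptor signalling. Igsf10 measured 9.9, 12.9 and 12.6 CPM in WT ESC, 7.73, 9.56 and 9.34 in MLL2dTAG ESC, 32.7, 30.4 and 31 in WT NPC and 0.296, 0.265 and 0.443 in MLL2dTAG NPC. Casp8 measured 3.94, 2.92 and 3.36 CPM in WT ESC, 3.0, 4.0 and 3.94 in MLL2dTAG ESC, 8.73, 9.47 and 9.49 in WT NPC and 0.296, 0.154 and 0.104 in MLL2dTAG NPC. In ESC the lines overlapped for Casp8 and MLL2dTAG was slightly lower for Igsf10, the WT NPC libraries were the highest and the MLL2dTAG NPC libraries were the lowest, with no overlap between NPC groups. The interaction was -6.12 (SE 0.19) for Igsf10, with an edgeR quasi-likelihood Benjamini-Hochberg adjusted p of 2.9e-24, and -5.79 (SE 0.29) for Casp8, with 1.7e-18. Against the change of the dCD line the differences were -6.28 and -5.84. The other two were Ccdc149 (interaction -6.02) and Tceal1 (-5.43). Ccdc149 rose by 4.11 in WT and fell by 1.91 in MLL2dTAG on the log2 scale, and Tceal1 rose by 2.37 and fell by 3.06. Among genes with under 10 counts in a group, Bnc1, a zinc finger factor of epithelia, had 8 counts over the WT ESC libraries and rose to 237 CPM in WT NPC and 93.7 CPM in MLL2dTAG NPC.

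The promoters of Igsf10 and Casp8 are shown beside those of Aass, a gene silenced more in MLL2dTAG, and Tdgf1, a gene silenced less, because CpG dinucleotides are what the CXXC domain of MLL2 binds. Each is the 250 bases before the annotated start in RefSeq (GRCm38.p6), 5′ to 3′ on the strand of the gene, with every CG in capitals.
Igsf10: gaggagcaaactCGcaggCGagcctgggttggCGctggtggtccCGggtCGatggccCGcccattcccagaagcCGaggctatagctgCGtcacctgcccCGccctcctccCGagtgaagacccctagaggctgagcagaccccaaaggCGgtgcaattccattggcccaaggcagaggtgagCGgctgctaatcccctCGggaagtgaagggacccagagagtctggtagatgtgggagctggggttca
Casp8: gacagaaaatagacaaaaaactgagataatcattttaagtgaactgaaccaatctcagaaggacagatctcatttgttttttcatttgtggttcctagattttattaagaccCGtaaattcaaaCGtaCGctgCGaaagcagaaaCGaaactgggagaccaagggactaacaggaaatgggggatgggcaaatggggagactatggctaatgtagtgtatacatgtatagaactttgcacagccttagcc
Aass: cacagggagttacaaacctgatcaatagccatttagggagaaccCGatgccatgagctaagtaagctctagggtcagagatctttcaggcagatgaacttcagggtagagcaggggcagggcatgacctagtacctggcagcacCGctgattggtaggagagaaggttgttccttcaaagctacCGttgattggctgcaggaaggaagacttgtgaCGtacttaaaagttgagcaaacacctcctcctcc
Tdgf1: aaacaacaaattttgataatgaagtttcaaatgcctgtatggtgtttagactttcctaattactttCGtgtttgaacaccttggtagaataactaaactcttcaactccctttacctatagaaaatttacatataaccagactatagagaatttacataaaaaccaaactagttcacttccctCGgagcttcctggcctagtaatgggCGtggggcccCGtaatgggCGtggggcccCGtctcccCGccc
The windows lie at chr3:59344257-59344506 (minus strand), chr1:58802252-58802501 (plus strand), chr6:23132987-23133236 (minus strand) and chr9:110946159-110946408 (minus strand). They hold 13, 5, 4 and 7 CG in that order. Over 32851 promoter windows of this length the median was 6, 92.1% held at least 1 CG, and 31.5%, 55.6%, 62.2% and 46.3% held as many as the 4 genes. Igsf10 thus lay in the upper part of the distribution and the others around its middle. A window was found for 63.3% of the genes tested, under the 80% set for a comparison of classes, so CG content by class was not compared, and methylation or MLL2 binding at these windows was not measured here.

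Under the same limits, genes silenced more in MLL2dTAG were led by Aass, which encodes the enzyme that starts lysine breakdown. Aass measured 117, 109 and 115 CPM in WT ESC, 115, 112 and 109 in MLL2dTAG ESC, 5.76, 5.77 and 5.83 in WT NPC and 0.237, 0.221 and 0.365 in MLL2dTAG NPC. Its ESC groups overlapped and its NPC groups did not, the MLL2dTAG NPC libraries being the lowest of all 12. The interaction was -4.36 (SE 0.21, edgeR quasi-likelihood test, Benjamini-Hochberg adjusted p = 4.3e-19). Hydin, a gene of motile cilia, differed at both stages. It measured 12.7, 15 and 13.1 CPM in WT ESC, 47.6, 49.7 and 47.1 in MLL2dTAG ESC, 0.696, 0.745 and 0.642 in WT NPC and 0.119, 0.221 and 0.104 in MLL2dTAG NPC, so that MLL2dTAG was above WT in ESC and below it in NPC. The transcript 4930447C04Rik fell by 1.58 in WT and 5.60 in MLL2dTAG, and the LEM domain gene Lemd1 by 1.30 and 5.04. The genes with a silencing gained included Smarca5-ps (interaction -4.65, SE 0.30), a pseudogene that may share reads with its parent and is therefore uncertain. They also included the Y-linked Eif2s3y (-4.24) and Msrb2, a mitochondrial methionine sulfoxide reductase. Among those with under 10 counts in a group, 2810429I04Rik (-6.65) and the Y-linked Uty (-5.60) had larger values. Eif2s3y, 2810429I04Rik and Uty were already at 3.67%, 4.53% and 3.78% of the WT level in MLL2dTAG ESC. Msrb2 measured 8.94, 6.0 and 8.49 CPM in WT ESC, 15.7, 15.7 and 15.6 in MLL2dTAG ESC, 6.61, 7.69 and 7.23 in WT NPC and 1.25, 0.772 and 0.913 in MLL2dTAG NPC. The WT stages overlapped, whereas the MLL2dTAG libraries were above them in ESC and below them in NPC.

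Under the same limits, genes with an induction gained were led by Prlr, the prolactin receptor. It measured 2.13, 2.22 and 1.97 CPM in WT ESC, 0.513, 0.714 and 0.783 in MLL2dTAG ESC, 1.8, 2.08 and 1.87 in WT NPC and 20, 21 and 21.5 in MLL2dTAG NPC. WT did not differ visibly between stages, and the MLL2dTAG NPC libraries were the only ones above 3 CPM. The interaction was 5.05 (SE 0.25). Slc34a2, a sodium phosphate cotransporter, Avil, an actin-binding protein of sensory neurons, and Irs4, a docking protein of insulin receptor signalling, rose by 4.54, 4.65 and 3.28 in MLL2dTAG on the log2 scale and had values of -0.26, -0.07 and -0.99 in WT. Among genes that WT silenced, the protease inhibitor Serpinb6c (-3.98 in WT, 1.87 in MLL2dTAG), the anion transporter Abcc2 (-2.46 and 2.98) and the smooth muscle calponin Cnn1 (-1.37 and 3.32) turned to induction, and Gm18336 (-4.53 and 0.32) stayed near its ESC level. Among genes induced in both lines, the cation channel gene Trpv3, Fndc1, the actin bundling gene Lcp1 and the glucuronosyltransferase gene Ugt2b34 rose by 1.02, 1.19, 1.49 and 3.95 in WT and by 5.68, 5.78, 5.13 and 8.14 in MLL2dTAG.

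**Figure D2:**
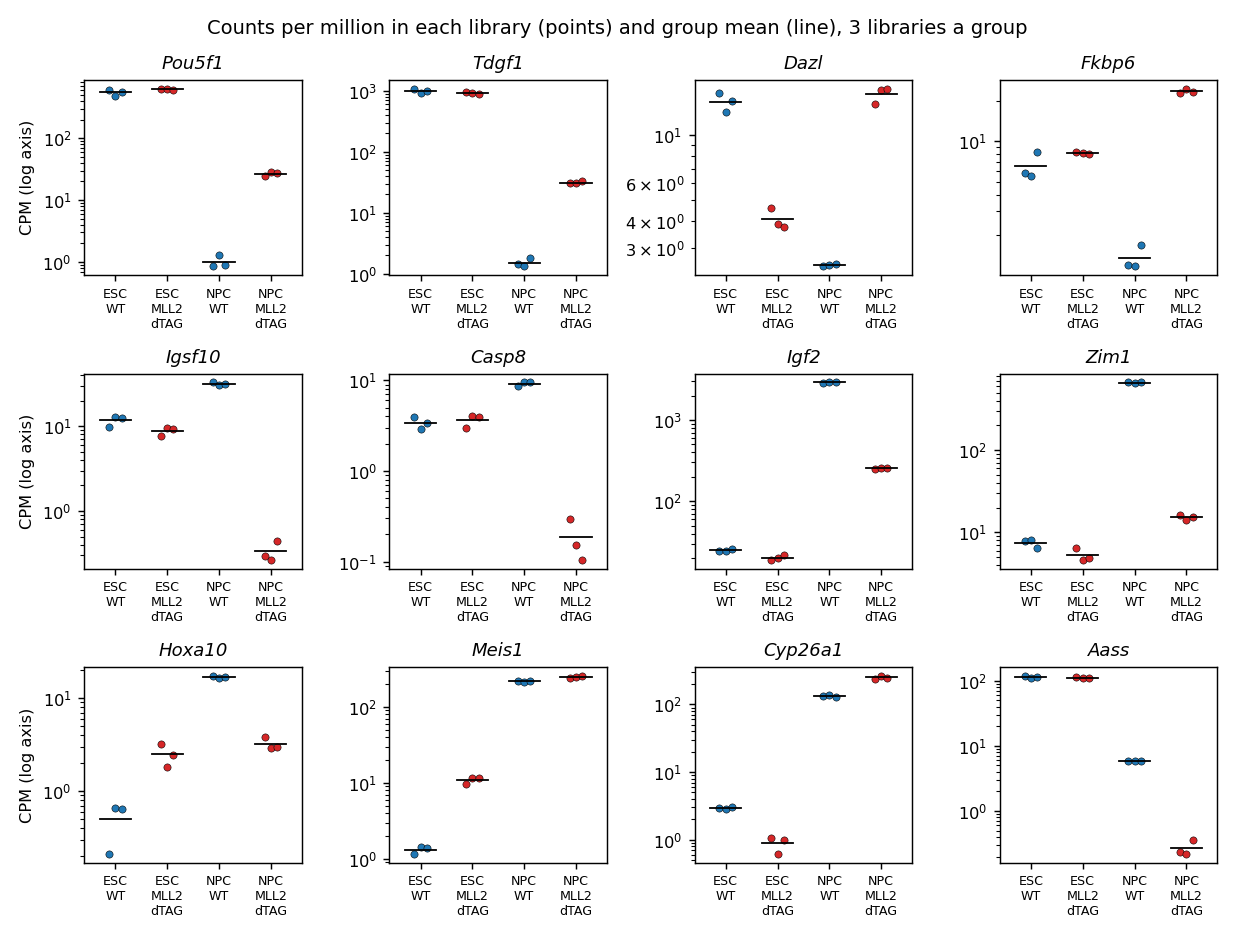
CPM of 12 genes in each library (points, 3 a group) with the group mean (line), on log axes that differ between panels; blue is WT and red is MLL2dTAG. Pou5f1 and Tdgf1 stay above WT in MLL2dTAG NPC, Igf2 and Zim1 stay below, and Meis1 differs between the lines in ESC more than in NPC.

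The pluripotency programme was silenced less completely in MLL2dTAG. Of 30 core and naive pluripotency genes, 28 fell at least 2-fold in WT and 29 did in MLL2dTAG, and the interaction was called positive for 22 (17 of at least 2-fold) and negative for 4 (Tet2 of at least 2-fold). Over all genes tested 26.4% were called positive (8.35% of at least 2-fold) and 22.6% negative (8.97%). The median interaction of the 30 genes was 1.22, against 0.05 for all genes tested. Pou5f1, the gene of the core pluripotency factor OCT4, measured 611, 485 and 568 CPM in WT ESC, 636, 622 and 598 in MLL2dTAG ESC, 0.854, 1.28 and 0.893 in WT NPC and 24.5, 28.3 and 27.9 in MLL2dTAG NPC. Tdgf1, the NODAL co-receptor gene, measured 1086, 926 and 978 CPM in WT ESC, 951, 917 and 888 in MLL2dTAG ESC, 1.42, 1.33 and 1.79 in WT NPC and 30.8, 30.3 and 32.7 in MLL2dTAG NPC. The ESC libraries of the lines lay close together for both genes, and every MLL2dTAG NPC library was more than 10 times above every WT NPC library. The interaction was 4.56 (SE 0.14, edgeR quasi-likelihood Benjamini-Hochberg adjusted p = 2.3e-24) for Pou5f1 and 4.48 (SE 0.10) for Tdgf1. Tcl1, an activator of AKT signalling, had 4 counts over the WT NPC libraries and 354 over those of MLL2dTAG, and the TGF-beta family gene Gdf3 had 4 and 196.

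Expressed as a share of the ESC level of the same line, 0.182% of Pou5f1 was left in WT NPC and 4.35% in MLL2dTAG NPC. Nanog, a homeobox gene of naive cells, had 0.352% and 2.64%, and Esrrb, an orphan nuclear receptor gene, 0.211% and 2.63%. The median over the 30 genes was 1.69% in WT and 4.89% in MLL2dTAG, and the share was larger in MLL2dTAG for 24 genes and in WT for 5, Dppa3 having no count in NPC of either line. Under 1% was left for 11 genes in WT and for 3 in MLL2dTAG. These 11 genes, picked by their WT share so that the values are a description, had a median of 0.152% left in WT, with a highest value of 0.492%, and in MLL2dTAG a median of 2.63%, with a highest value of 5.43%. Sox2, which neural precursors also use, was at 4.63% and 6.35%, Lin28a at 10.01% and 7.48% and the demethylase gene Tet2 at 62.5% and 26.4%. The silencing was therefore not uniformly weaker over this list.

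**Figure D3:**
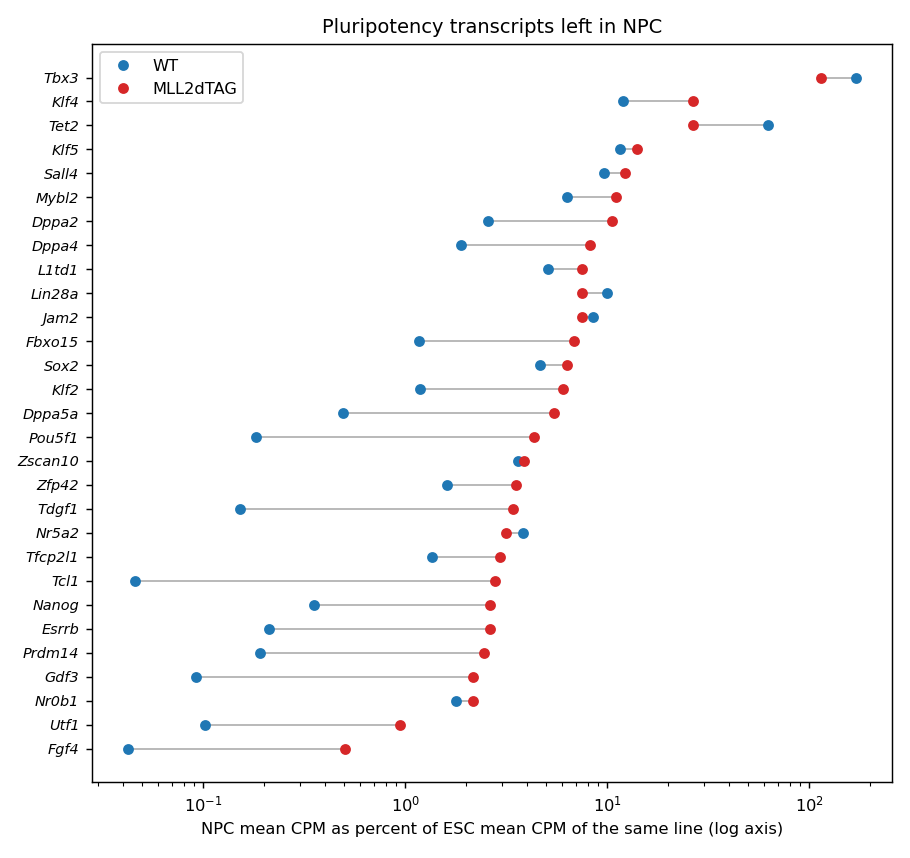
Mean NPC level as a percent of the mean ESC level of the same line (log axis) for 29 of the 30 pluripotency genes, in WT (blue) and MLL2dTAG (red), 3 libraries a group; Dppa3, without counts in NPC, is not drawn. MLL2dTAG lies to the right of WT for 24 genes, with Tcl1, Pou5f1 and Tdgf1 among the widest gaps and Tet2 reversed.

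Genes of the formative and primed epiblast, the state that follows naive pluripotency, were called positive for 12 of 20 (10 of at least 2-fold) and negative for 2, with a median of 1.11. Shares over all genes tested were 26.4% positive (8.35% of at least 2-fold) and 22.6% negative. The epiblast genes were positive in more than 1 way. Lefty2, an inhibitor of NODAL signalling, measured 54.4, 51.3 and 56.6 CPM in WT ESC, 39.5, 37.5 and 42.1 in MLL2dTAG ESC, 0.380, 0.319 and 0.168 in WT NPC and 3.11, 3.73 and 3.02 in MLL2dTAG NPC, somewhat lower in MLL2dTAG ESC and higher in MLL2dTAG NPC. Its relative Lefty1 measured 74.2, 67 and 75.2 CPM in WT ESC, 19.5, 18.6 and 18.3 in MLL2dTAG ESC, 1.01, 1.01 and 0.558 in WT NPC and 3.41, 3.53 and 2.56 in MLL2dTAG NPC, and was lower in MLL2dTAG ESC and higher in MLL2dTAG NPC. Fgf5, a ligand of the formative state, measured 7.72, 6.56 and 6.18 CPM in WT ESC, 1.54, 1.61 and 1.41 in MLL2dTAG ESC, 7.56, 9.15 and 8.07 in WT NPC and 15.2, 14.1 and 15.4 in MLL2dTAG NPC, with no overlap between lines at either stage. It rose by 0.30 in WT and by 3.30 in MLL2dTAG on the log2 scale. Foxd3 (interaction -0.88) and Tcf15 (-0.71) were the 2 negative genes, both higher in MLL2dTAG ESC.

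Germline and meiosis genes were called positive for 24 of 33 (18 of at least 2-fold) and negative for 3, with a median of 1.22. Among all genes tested 26.4% were positive (8.35% of at least 2-fold) and 22.6% negative. Much of the germline result lay in ESC, where 18 of the 33 were at least 2-fold lower in MLL2dTAG (10.4% of all genes tested were) and 2 higher (6.44%). In NPC, 8 were at least 2-fold lower (11.9% of all genes) and 10 higher (7.71%). Dazl, an RNA-binding protein of germ cells, measured 15.7, 12.8 and 14.4 CPM in WT ESC, 4.61, 3.88 and 3.76 in MLL2dTAG ESC, 2.47, 2.5 and 2.51 in WT NPC and 14, 16.3 and 16.5 in MLL2dTAG NPC. It fell in WT and rose in MLL2dTAG, and at each stage the lines did not overlap. Fkbp6, a co-chaperone of the piRNA pathway, measured 5.75, 5.54 and 8.29 CPM in WT ESC, 8.35, 8.19 and 7.96 in MLL2dTAG ESC, 1.2, 1.17 and 1.67 in WT NPC and 22.9, 24.6 and 23.2 in MLL2dTAG NPC. Here ESC were similar and the MLL2dTAG NPC libraries stood above all others. Their interactions were 4.45 (SE 0.15) and 3.81 (SE 0.18). Dmc1, the meiotic recombinase gene, went the other way (-3.23, SE 0.33), with 3.44 CPM in WT NPC and 0.171 CPM in MLL2dTAG NPC. Markers of the 2-cell-like state such as Zscan4 and Usp17l copies, which are near-identical so that reads between copies are uncertain, summed to 25.1 to 27.0 CPM in WT ESC and 0.235 to 0.434 CPM in MLL2dTAG ESC, where 7 of the 12 had no count. In NPC they were at 2.02 to 2.85 and 1.27 to 2.27 CPM. Most of the MLL2dTAG NPC sum was Pramel7, with 190 counts against 2 in WT NPC. In MLL2dTAG NPC, 4 of the 12 had no count, so the NPC sums do not stand for the same genes. Of these 12 genes, 6 were called positive, and 3 without the second MLL2dTAG NPC library.

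Hox genes assign position along the body axis and are induced by retinoic acid, and many had a lower NPC to ESC ratio in MLL2dTAG. Of 15 genes of paralog groups 1 to 5, 9 were called negative and 6 were not called, with a median of -1.07. Without the third WT ESC library, 5 were called negative. Of 24 genes of groups 6 to 13, 13 were called negative and 3 positive, with a median of -1.01. For both groups the reference is all genes tested, with 22.6% called negative and 26.4% positive. Hoxa10 measured 0.213, 0.663 and 0.645 CPM in WT ESC, 3.22, 1.83 and 2.45 in MLL2dTAG ESC, 17.2, 16.6 and 16.9 in WT NPC and 3.79, 2.89 and 3.0 in MLL2dTAG NPC. Hoxa9 measured 0.426, 0.796 and 0.815 CPM in WT ESC, 1.68, 1.37 and 1.77 in MLL2dTAG ESC, 31.6, 32.8 and 36.5 in WT NPC and 5.42, 4.9 and 5.4 in MLL2dTAG NPC, and Hoxc6 measured 0.319, 0.796 and 0.815 CPM in WT ESC, 1.98, 2.45 and 2.66 in MLL2dTAG ESC, 79.6, 78.3 and 77.6 in WT NPC and 18.3, 19.8 and 19.3 in MLL2dTAG NPC. In all 3 genes MLL2dTAG was above WT in ESC, at a low level, and below WT in NPC, with no overlap at either stage. The interactions were -4.57 (SE 0.27), -3.86 (SE 0.23) and -3.83 (SE 0.21).

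Both Hox groups are next given by stage. In NPC the median difference from WT over groups 1 to 5 was -0.45, and 2 of 15 genes were called at least 2-fold lower, where 11.9% of all genes tested were. In ESC the median was 0.90, at levels of a few counts for many of them. Of the 24 genes of groups 6 to 13, 6 were at least 2-fold lower in NPC and 6 higher, where 7.71% of all genes tested were higher. The 6 higher genes were all at or below 0.554 CPM in WT NPC. The median difference of this group was 1.21 in ESC and -0.39 in NPC. Over the 14 genes with at least 5 CPM in WT NPC, the median NPC difference was -0.91, with values from -2.69 to 0.23. The 6 lower genes were Hoxc6, Hoxa7, Hoxa9, Hoxd9, Hoxa10 and Hoxc10. Hoxb9, beside Hoxa9 in paralog group, was 99 CPM in WT NPC and 116 CPM in MLL2dTAG NPC. Hoxc13 and Hoxd13, at the far end of their clusters, fell in WT from ESC to NPC (-2.21 and -1.91) and had interactions of 1.27 (SE 0.27) and 1.68 (SE 0.31).

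**Figure D4:**
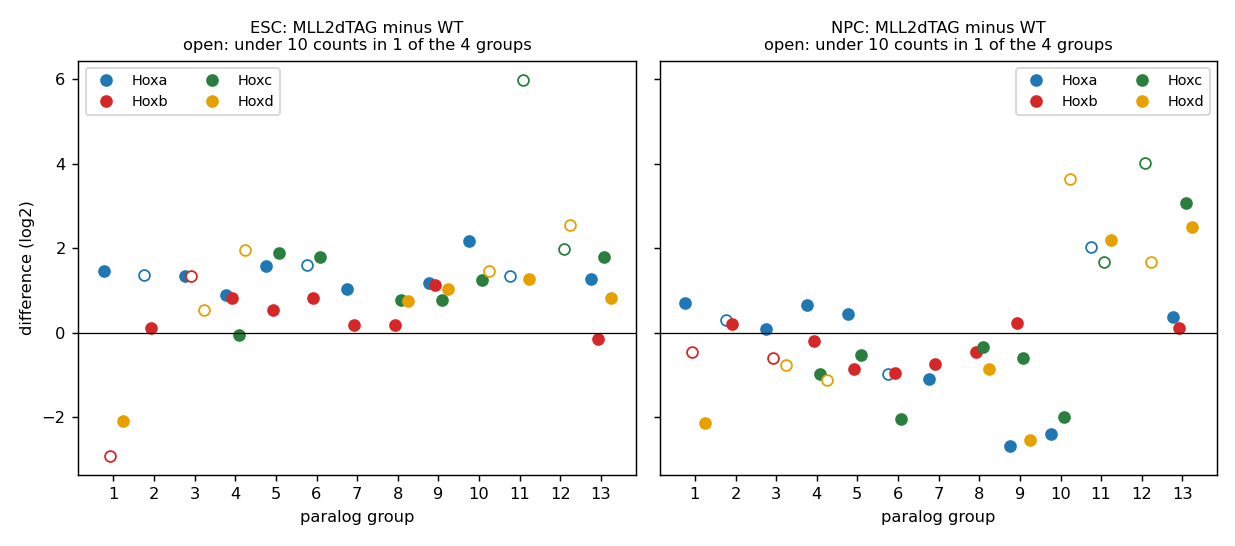
MLL2dTAG minus WT difference (log2) of 39 Hox genes in ESC (left) and NPC (right) by paralog group, coloured by cluster; open circles have under 10 counts in at least 1 of the 4 groups. Most genes lie above 0 in ESC, and in NPC Hoxc6, Hoxa9, Hoxd9, Hoxa10 and Hoxc10 lie near -2 or below while Hoxc13 and Hoxd13 lie above 2.

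Genes of retinoid response and turnover were called negative for 14 of 20 (9 of at least 2-fold) and positive for 4, with a median of -0.77. Calls over all genes tested were 22.6% negative (8.97% of at least 2-fold) and 26.4% positive (8.35%). The TALE homeobox gene Meis1, which encodes a Hox cofactor, measured 1.17, 1.43 and 1.39 CPM in WT ESC, 9.81, 11.6 and 11.8 in MLL2dTAG ESC, 222, 214 and 219.9 in WT NPC and 239, 247 and 253 in MLL2dTAG NPC. Meis2 measured 2.02, 2.32 and 1.19 CPM in WT ESC, 12.7, 13.4 and 13.4 in MLL2dTAG ESC, 397, 383 and 390.2 in WT NPC and 387, 381 and 387 in MLL2dTAG NPC. The lines overlapped in NPC for Meis2 and lay close for Meis1, and both genes started from a higher level in MLL2dTAG ESC, which gave interactions of -2.87 (SE 0.12) and -2.87 (SE 0.11). Rarb, the retinoic acid receptor gene that is itself a direct retinoid target, was likewise 226 and 249 CPM in NPC of WT and MLL2dTAG, with 29 and 115 counts in ESC. Aldh1a2, which makes retinoic acid, differed in NPC, with 2.34, 2.85 and 2.51 CPM in WT ESC, 2.05, 1.61 and 1.36 in MLL2dTAG ESC, 127, 123 and 126 in WT NPC and 19.9, 21.1 and 19.8 in MLL2dTAG NPC. Cyp26a1, which breaks it down, measured 2.93, 2.82 and 3.06 CPM in WT ESC, 1.06, 0.621 and 0.992 in MLL2dTAG ESC, 134, 139 and 131 in WT NPC and 241, 261 and 249.8 in MLL2dTAG NPC, and was lower in MLL2dTAG ESC and higher in MLL2dTAG NPC. The retinol uptake receptor gene Stra6 was 179 CPM in WT NPC and 54.8 CPM in MLL2dTAG NPC, an interaction of -1.64 (SE 0.34).

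Neural genes were called in both directions, as were all genes tested (26.4% positive and 22.6% negative). Of 33 neural progenitor genes, 5 were called positive and 11 negative, with a median of -0.35, and 17 were not called. Pax6, a homeobox gene of progenitors, measured 1.6, 2.42 and 1.22 CPM in WT ESC, 6.88, 8.22 and 6.68 in MLL2dTAG ESC, 38.1, 38.5 and 40.2 in WT NPC and 25.7, 26 and 27.4 in MLL2dTAG NPC. It was higher in MLL2dTAG ESC and lower in MLL2dTAG NPC, and both lines induced it. Pax7, of the dorsal neural tube, rose by 1.55 in WT and fell by 1.60 in MLL2dTAG, where 20 counts were left over the NPC libraries. The Notch ligand gene Dll1 measured 30.8, 29.3 and 31.6 CPM in WT ESC, 7.65, 6.52 and 7.05 in MLL2dTAG ESC, 4.18, 4.15 and 3.96 in WT NPC and 6.76, 7.88 and 8.5 in MLL2dTAG NPC. WT lost most of it, and MLL2dTAG was low at both stages. Cdh2, Sox11, Sox9 and Sox21 were not called, with interactions of 0.17, -0.01, 0.08 and -0.03.

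Of 38 neuronal genes, 10 were called positive and 13 negative, with a median of -0.17. Over all genes tested 26.4% were positive and 22.6% negative, so the positive count is near that share. Nefm, the medium neurofilament gene, measured 4.04, 3.45 and 3.33 CPM in WT ESC, 12.6, 13 and 13.5 in MLL2dTAG ESC, 42.5, 38.2 and 41.6 in WT NPC and 9.19, 10.9 and 8.81 in MLL2dTAG NPC, a rise in WT beside a small fall in MLL2dTAG (interaction -3.95, SE 0.14). Of the 8 positive genes of at least 2-fold, 4 had under 10 counts in MLL2dTAG ESC. The proneural gene Neurog1 was among these, with 10 counts in WT ESC, 0 in MLL2dTAG ESC, 5.29 CPM in WT NPC and 4.99 CPM in MLL2dTAG NPC, so that the NPC difference was not called. Neurod4 and St18 had 0 counts in MLL2dTAG ESC too, with 6 and 4 in WT ESC, and each lost the call when 1 of several ESC libraries, of either line, was left out. Axon guidance genes were called positive for 8 of 30, also near the share of all genes, and negative for 12, with a median of 0.03. The netrin gene Ntn1 (-2.25) and the contactin gene Cntn1 (-2.25) were at the low end and the semaphorin gene Sema6a (2.48) at the high end.

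Imprinted genes, of which only the copy from a given parent is active, were called positive for 9 of 35 and negative for 16. Their median was -0.11, and over all genes tested 26.4% were positive and 22.6% negative. The extremes were negative. Igf2, the fetal growth factor gene, measured 24.6, 24.6 and 25.7 CPM in WT ESC, 18.9, 19.7 and 21.7 in MLL2dTAG ESC, 2895, 2909 and 2901 in WT NPC and 250.2, 256 and 256 in MLL2dTAG NPC. Zim1, a zinc finger gene of the Peg3 domain, measured 7.77, 8.19 and 6.45 CPM in WT ESC, 6.48, 4.62 and 4.83 in MLL2dTAG ESC, 665, 661 and 666 in WT NPC and 16.2, 14.2 and 15.2 in MLL2dTAG NPC. For both, ESC differed little between the lines (overlapping for Zim1, slightly lower in MLL2dTAG for Igf2) and WT NPC stood more than 10 times above MLL2dTAG NPC, with interactions of -3.20 (SE 0.07) and -4.95 (SE 0.13). Igf2os, antisense to Igf2, went the same way, with 4688 counts over the WT NPC libraries and 245 over those of MLL2dTAG (interaction -2.93, SE 0.96). Whether the counting used strand is not given in the sources used here, so reads of Igf2 and Igf2os cannot be told apart. Other neighbours had positive values. H19, beside Igf2, had an interaction of 0.70 (SE 0.06), and Peg3 and Usp29, beside Zim1, had 0.20 (SE 0.05) and 0.97 (SE 0.13). Zdbf2 measured 132, 160.3 and 132 CPM in WT ESC, 408, 417 and 408 in MLL2dTAG ESC, 234, 229 and 230.3 in WT NPC and 42.7, 45.1 and 48.5 in MLL2dTAG NPC, and so was higher in MLL2dTAG ESC and lower in MLL2dTAG NPC. The cyclin kinase inhibitor gene Cdkn1c was lower in MLL2dTAG at both stages (-1.61 and -2.71), and the Igf2 receptor gene Igf2r had an interaction of 1.40 (SE 0.07).

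Among metabolic lists, most sterol and lysosome genes had a positive interaction and most glycolysis genes a negative one. All genes tested were called positive for 26.4% (8.35% of at least 2-fold) and negative for 22.6% (8.97%). Of 22 cholesterol synthesis genes, 18 were called positive (6 of at least 2-fold) and 3 negative, with a median of 0.69. Insig1, the sterol sensor that holds back this pathway, measured 123, 124 and 129 CPM in WT ESC, 62.4, 64.2 and 63.1 in MLL2dTAG ESC, 98.2, 99.4 and 103 in WT NPC and 177, 179.9 and 175 in MLL2dTAG NPC. WT fell slightly and MLL2dTAG rose, from a lower level in ESC to a higher one in NPC. Of 26 lysosome genes, 20 were called positive and 1 negative, with a median of 0.70. The cathepsin gene Ctsl measured 306, 279.8 and 299 CPM in WT ESC, 333, 336 and 323 in MLL2dTAG ESC, 301, 286 and 301 in WT NPC and 865, 838 and 837 in MLL2dTAG NPC, level in WT and higher in MLL2dTAG NPC than in any other group. The negative gene was the cathepsin gene Ctsh (-2.70, SE 0.18). Of 25 glycolysis and hypoxia response genes, 20 were called negative (5 of at least 2-fold) and 2 positive, with a median of -0.46. Pdk1, whose kinase inhibits pyruvate dehydrogenase, measured 295, 298 and 305 CPM in WT ESC, 399, 399 and 398 in MLL2dTAG ESC, 194, 199 and 200.4 in WT NPC and 54.8, 52.8 and 52.8 in MLL2dTAG NPC. The glucose transporter genes Slc2a1 and Slc2a3 had interactions of -1.20 (SE 0.05) and 0.10 (SE 0.04). Slc2a3 lost its call under 16 of the 23 alternatives, and turned to -0.001 when genes with low counts were kept.

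Interferon and antigen presentation genes were called positive for 13 of 25 and negative for 4, with a median of 0.40. Over all genes tested 26.4% were positive and 22.6% negative, so the negative count is below that share. The largest positive values were of interferon-stimulated genes at low levels, and 3 of the 4 negative genes (Tap2, H2-K1 and H2-D1) act in antigen presentation, as do the positive genes B2m and Tapbp. Oasl2 measured 2.39, 2.59 and 2.82 CPM in WT ESC, 1.17, 0.496 and 0.626 in MLL2dTAG ESC, 1.71, 1.81 and 1.23 in WT NPC and 8.0, 8.41 and 7.43 in MLL2dTAG NPC. It was lower in MLL2dTAG ESC and higher in MLL2dTAG NPC. The chemokine gene Cxcl10 (4.92, SE 0.62) and Isg15 (3.23, SE 0.58) were also positive. The class I gene H2-K1 (-1.26) and the peptide transporter gene Tap2 (-1.58) were negative. Collagen and matrix genes split, with 17 of 30 positive and 9 negative (26.4% and 22.6% of all genes tested) and a median of 0.34. Col1a2, a chain of fibrillar collagen, measured 210, 255 and 223 CPM in WT ESC, 373, 366 and 388 in MLL2dTAG ESC, 151, 154 and 154 in WT NPC and 21.2, 19.6 and 23.1 in MLL2dTAG NPC, and the fibrillin gene Fbn1 had an interaction of -3.31 (SE 0.10). Several basement membrane genes were positive, among them the laminin genes Lamb1 (1.57) and Lama1 (0.87) and the type IV collagen gene Col4a1 (0.48).

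Markers of other cell types were read as sums and as calls, beside 26.4% positive and 22.6% negative calls over all genes tested. Endoderm markers, which include the basement membrane genes Lamb1 and Col4a1, were called positive for 13 of 16 and negative for 1, with a median of 1.20, and their summed level was 614 to 674 CPM in WT ESC, 671 to 707 in MLL2dTAG ESC, 1958 to 2102 in WT NPC and 4364 to 4418 in MLL2dTAG NPC. All 16 had counts in all 4 groups. Col4a1 and Lamb1 made up most of the NPC sums, with 109263 and 51601 counts in WT and 261923 and 126827 in MLL2dTAG. The sums thus follow mainly these 2 genes. The endocytic receptor gene Cubn measured 56.3, 63.5 and 60.8 CPM in WT ESC, 64.6, 63.7 and 67.5 in MLL2dTAG ESC, 63.6, 61.7 and 63.3 in WT NPC and 176, 176 and 187 in MLL2dTAG NPC, and the factor gene Gata4 rose to 62.6 CPM in WT NPC and 253 CPM in MLL2dTAG NPC. The secreted products were also higher in MLL2dTAG NPC than in WT NPC, with 0.851 and 4.8 CPM for Afp, 2.2 and 12.8 CPM for Ttr, and 3.64 and 11.4 CPM for Apoa1 in WT and MLL2dTAG. The summed level of 12 mesenchyme markers was 288 to 360.0, 512 to 548, 648 to 669 and 1194 to 1203 CPM in the same order. Of these 12, 4 were called positive and 2 negative, with a median of -0.12. Much of the sum was Col3a1, with 30959 counts in WT NPC and 83883 in MLL2dTAG NPC. Prrx1 went the other way, with 1078 and 409. The sum of 16 mesoderm and muscle markers was 27.2 to 28.7, 41.6 to 46.1, 163 to 166 and 514 to 526 CPM. Of 12 tested, 4 were positive and 2 negative, with a median of -0.10. Acta2 and Kdr held most of the NPC sums, with 4245 and 6243 counts in WT and 25683 and 24507 in MLL2dTAG. Neither sum therefore describes its list as a whole. The part of these cell types in the matrix, lysosome and sterol results was not tested.

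The other marker lists covered 5 lineages, again beside 26.4% positive and 22.6% negative calls over all genes tested. Summed levels of 11 neural crest markers were 110 to 116, 152 to 162, 113 to 116 and 156 to 159 CPM (2 positive, 6 negative), and those of glia 108 to 115, 103 to 108, 416 to 431 and 444 to 446 CPM (2 positive and 1 negative of 8 tested). Blood and endothelium markers were at 125 to 128, 90.3 to 93.2, 7.76 to 8.26 and 28.5 to 32.1 CPM (4 positive of 9 tested). Trophoblast markers were at 85.4 to 95.3, 83.7 to 87.8, 58.7 to 61.1 and 27.6 to 30.5 CPM (2 positive and 1 negative of 8 tested). Surface ectoderm markers were at 175 to 195, 155 to 161, 428 to 431 and 268 to 285 CPM (3 positive, 1 negative of 11). Krt18 and Krt8 made up most of these NPC sums, with 26111 and 14854 counts in WT and 13536 and 12559 in MLL2dTAG. Krt7 made up most of the trophoblast NPC sums, with 5565 counts in WT and 2605 in MLL2dTAG. Pecam1 held most of the blood and endothelium ESC sums, with 8713 and 7816 counts. The sums of these lists therefore do not describe each list as a whole.

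Signalling lists held calls of both signs, where 26.4% of all genes tested were positive and 22.6% negative. FGF to ERK feedback targets were called positive for 4 of 17 and negative for 10 (median -0.40), with Etv5 (1.52) and Etv1 (-1.55), both ETS factor genes, at the ends. BMP targets were positive for 4 of 15 and negative for 5 (-0.02), from the ligand gene Bmp4 (-2.21) to the antagonist gene Nog (3.15). WNT targets were positive for 7 of 15 and negative for 5 (0.23), with the feedback inhibitor gene Notum (-3.68) and the caudal factor gene Cdx2 (-2.80) lowest. Notch genes were positive for 7 of 17 and negative for 2 (0.13), and Hedgehog genes positive for 4 of 13 and negative for 4 (-0.18), with the ligand-binding gene Hhip lowest (-2.76). Cadherin and epithelial junction genes were positive for 8 of 24 and negative for 12 (-0.23).

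Growth and chromatin lists held calls in both directions, as did all genes tested (26.4% positive, 22.6% negative). S phase and mitosis genes were positive for 13 of 28 and negative for 9, with 1 of at least 2-fold (Ccne2, 1.17). The positive count was 8 with library totals as the only scaling, and also 8 when genes with low counts were kept. Cell cycle brakes and D cyclins were positive for 4 of 14 and negative for 5, 3 of them of at least 2-fold, namely the D cyclin gene Ccnd2 (-2.08), the inhibitor gene Cdkn1c (-1.09) and the kinase gene Cdk6 (1.12). p53 targets were positive for 14 of 20 and negative for 4 (median 0.44), 1 of them of at least 2-fold in each direction. H3K4 methyltransferase genes were positive for 5 of 19 and negative for 6, with Setd1b (-1.07) past 2-fold. Polycomb genes were positive for 9 of 29 and negative for 10, with Pcgf5 (1.81) and Phf19 (-2.68) past 2-fold.

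Some genes were already low in MLL2dTAG ESC and were nearly absent in MLL2dTAG NPC. Magohb, an exon junction protein gene, measured 13.7, 9.68 and 15.1 CPM in WT ESC, 0.366, 0.341 and 0.365 in MLL2dTAG ESC, 11.3, 10.6 and 12.9 in WT NPC and 0, 0.0441 and 0.0522 in MLL2dTAG NPC. That is 2.79% of the WT level in ESC and 0.277% in NPC, where 4 counts were left over the 3 libraries against 1216 in WT. The interaction was -3.11 (SE 0.66, edgeR quasi-likelihood Benjamini-Hochberg adjusted p = 0.00016), and its paralog gene Magoh stood at 104.7% of WT in ESC and 113% in NPC. Of 9 exon junction genes 5 were called positive and 1, Magohb, negative, where 26.4% of all genes tested were positive and 22.6% negative. The 4 Y-linked genes listed were all negative (median -4.92). Eif2s3y measured 76.8, 78.4 and 77.2 CPM in WT ESC, 3.44, 2.85 and 2.24 in MLL2dTAG ESC, 62.8, 64.3 and 66.4 in WT NPC and 0.119, 0.132 and 0.104 in MLL2dTAG NPC, or 3.67% of WT in ESC and 0.184% in NPC. Ddx3y was at 5.50% and 0.410%, Uty at 3.78% and 0.0767% and Kdm5d at 50.5% and 0.702%. The median interaction of the other chromosomes ranged from -0.02 to 0.08.

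The change in MLL2dTAG was set directly against that in dCD, to see whether the named differences hold with another line in place of WT. Both comparisons use the MLL2dTAG libraries, so their counts are not read against each other. In this test 9174 genes were called, 44.7% of those tested, and 1488 (7.25%) were at least 2-fold more positive and 1666 (8.12%) more negative in MLL2dTAG. Differences from dCD were 4.41 (SE 0.13) for Pou5f1, 2.36 (SE 0.08) for Tdgf1, -3.65 (SE 0.13) for Zim1, -2.49 (SE 0.07) for Igf2 and -5.26 (SE 0.23) for Aass, each with the sign found against WT. Meis1 was at -1.26 (SE 0.10), Meis2 at -0.27 (SE 0.08) and Hoxa10 at -3.08 (SE 0.22). For other genes the values of MLL2dTAG and dCD lay nearer to each other than to WT. Ugt2b34 rose by 9.02 in dCD and 8.14 in MLL2dTAG against 3.95 in WT, and Cnn1 rose by 3.56 in dCD and 3.32 in MLL2dTAG and fell in WT (-1.37). For these 2 genes the difference between MLL2dTAG and dCD was not called, at -0.88 (SE 0.93, edgeR quasi-likelihood Benjamini-Hochberg adjusted p = 0.47) and -0.24 (SE 0.16, adjusted p = 0.24). The sterol gene Msmo1 was also close between these lines, at 0.02 (SE 0.05). For several named genes the sign turned, with a call against each line. The values against WT and dCD were -2.41 and 1.24 for Hoxc5 and 1.27 and -1.999 for Hoxc13. They were -2.80 and 1.63 for Cdx2 and -2.45 and 1.57 for Bnc1. Setd1b (-1.07 against WT) was not called against dCD, at 0.08. Of the 3551 genes, 2315 were also called against dCD with the same sign, a description only since the MLL2dTAG libraries are shared.

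**Figure D5:**
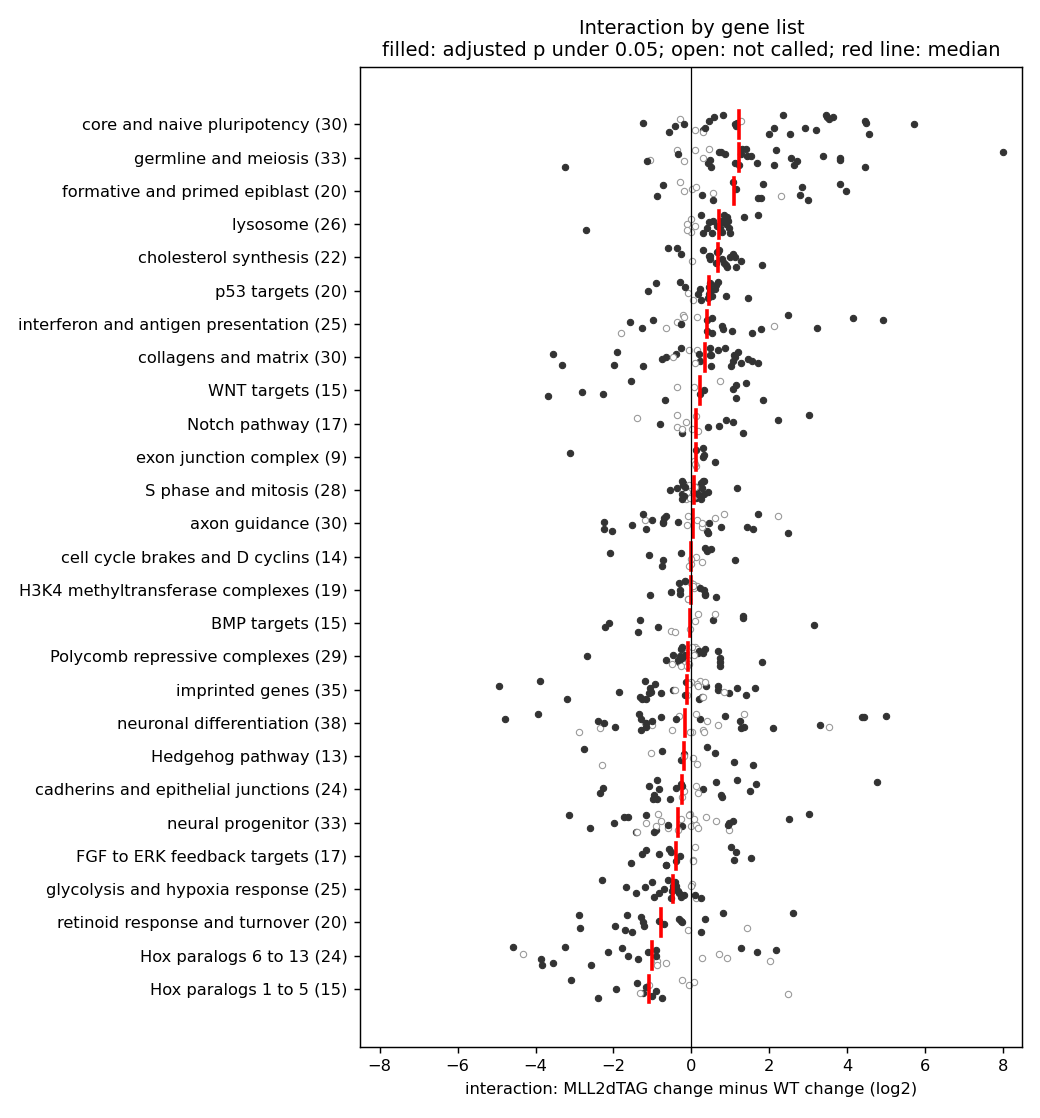
Interaction (log2) of every tested member of 27 gene lists, 1 point a gene, with the number of genes in parentheses; filled points are called at adjusted p under 0.05, open points are not, and red lines are medians. The pluripotency, germline and epiblast lists have medians of 1.11 to 1.22 and both Hox lists medians of -1.07 and -1.01.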

How the data were processed

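Poly(A) RNA was sequenced from stranded libraries, per the labels' protocols, and the deposited values are unnormalised counts of reads for each gene, made with HTSeq per the submitters' processing notes, whose settings and version are not given in the sources used here. Counts were fitted as deposited with edgeR 4.0.16 (limma 3.58.1, R 4.3.3): TMM scaling, a filter on low counts (filterByExpr, 20511 of 51734 genes kept), 18 libraries in 6 groups, and quasi-likelihood tests of each contrast with Benjamini-Hochberg adjustment over all genes tested. A gene was called at adjusted p under 0.05, and the size threshold was 1 on the log2 scale. Values per library are CPM after TMM. Genes were named as the called members with the highest and lowest interaction of each list (up to 4 a side), as the 4 largest of each class of response with at least 5 CPM in a group, 10 counts in every group and a call without each library in turn, as the 3 most abundant of each class with under 10 counts in a group, and Kmt2b. Other members, such as those not called and Cubn, were chosen after their values were seen. The members and lists were chosen with earlier results of these data known. The tests were tried on simulated data. Alternatives were 3 other scalings, other filters, DESeq2 1.42.0, halved counts, 4 groups only, a replicate block, offsets for GC content and length, and leaving out each of 12 libraries. Counts of 3 per library correspond to 0.0652 to 0.154 CPM. Per-sample columns that could not be tied to a sample numbered 18, of which 6 were in the table used, and they were not used. The combined dCD and MLL2dTAG libraries were not analysed here.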

Additional observations from a re-analysis of the deposited data

Results flagged for a closer look

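The change from ESC to NPC differed between MLL2dTAG and WT for 10043 genes, tested as the interaction itself with edgeR's quasi-likelihood test. In 155 genes both lines changed at least 2-fold in opposite directions. The change also differed between MLL2dTAG and dCD for 9174 genes, by the same test.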

How the results depend on the processing

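Of the counts of called genes, those at 2-fold or more moved under 1 setting, to 963 positive and 1139 negative with a filter of 5 CPM in 3 libraries, which left 13011 genes to test. The interaction was called for 8653 genes with this filter and for at most 10180 under the other settings. Slc2a3 turned to -0.0012 without a filter on low counts. Leaving out each of the 12 libraries gave 9556 to 10097 called genes (5140 to 5414 positive, 4298 to 4683 negative), 1619 to 1724 positive and 1763 to 1893 negative at 2-fold or more, 15923 to 16508 for WT, 15583 to 16417 for MLL2dTAG and 8739 to 9695 against dCD. The replicate numbers do not pair the libraries (correlations of deviations -0.019 to 0.024), and with the replicate block 9902 genes were called. Of 232 called genes named, 26 lost the call under at least 1 alternative. Not run were the comparison with dCD in a fit of 4 groups and the comparison of promoter CG content by class. Depth limits genes with few counts: 619 of the 3551 genes had under 10 counts in a group. In every library, 60.8% to 66.5% of counts from 1 to 10 were even. Whether read pairs were counted as 2 reads was not tested, and if so such limits would stand for fewer pairs. Halved counts were run for this reason, and Neurod4 and St18 were among the named genes that then lost the call.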
